A study of Mus musculus with 6 samples.

Results

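Of the 55487 genes in the count table, 10 genes of the BCL2 family were taken by symbol: Bcl2, Bcl2l1, Mcl1, Bax, Bak1, Bcl2l11, Bbc3, Pmaip1, Bid and Bad. All 10 were found once each, and all 10 were expressed enough to be tested. RNA was measured in 6 bulk libraries of primitive macrophages, the first macrophages of the embryo and the source of microglia, grown from mouse embryonic stem cells. The wild-type group and the Ts1Cje group had 3 libraries each. Ts1Cje mice, used to model Down syndrome, carry an extra copy of a distal part of chromosome 16, and the study asked why its embryos have fewer microglia. The stem cells of both groups were cultured in the same way, for 12 days, with the cytokines M-CSF, IL-3 and SCF and the growth factors VEGF, FGF2, BMP-4 and activin A. The labels give lots 1 to 3 for each genotype but do not say whether a lot is a separate stem cell line or a separate differentiation. The p-values therefore cover only how far these libraries spread, possibly for technical reasons. Where 3 values are given for a genotype they follow replicates 1 to 3. None of the 10 genes lies on chromosome 16: Bcl2 is on chromosome 1, Bcl2l1 and Bcl2l11 on 2, Mcl1 on 3, Bid on 6, Bax and Bbc3 on 7, Bak1 on 17, Pmaip1 on 18 and Bad on 19.

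The BCL2 family decides whether mitochondria release the factors that start apoptosis. Guardians (BCL2, BCL-XL from Bcl2l1, and MCL1) hold the pore-forming effectors BAX and BAK in check. BH3-only proteins sense stress and loss of growth factors; they bind the guardians, and some also activate the effectors directly. Macrophages depend on M-CSF for survival, and MCL1 is a short-lived protein that must be made continually. Much of the family's control is on the protein, through phosphorylation, cleavage and degradation, and RNA does not show it.

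Promoter windows are shown for 3 members, Bcl2l11 and Mcl1 because their RNA differed most between libraries in opposite directions, and Bbc3 because it holds the same FOXO letters as Bcl2l11. Each run is the 250 bases before a RefSeq start in GRCm38.p6 (the build called mm10 in the processing notes), on the plus strand, 5′ to 3′, and none overlaps an exon of its gene in GENCODE M21. For Bcl2l11 it is 1 of 2 RefSeq windows and for Bbc3, inside the gene, 1 of 3. Capitals mark the FOXO site (GTAAACA or its reverse complement) in Bcl2l11 and Bbc3, and the GC box (GGGCGG or its reverse complement) in Mcl1. FOXO factors become active when growth factor signals stop.
Bcl2l11 chr2:128125788-128126037: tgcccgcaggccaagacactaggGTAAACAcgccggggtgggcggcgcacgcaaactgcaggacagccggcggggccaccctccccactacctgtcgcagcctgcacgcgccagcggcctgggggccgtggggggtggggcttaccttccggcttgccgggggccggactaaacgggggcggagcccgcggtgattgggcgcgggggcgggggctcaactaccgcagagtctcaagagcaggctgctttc
Bbc3 chr7:16310011-16310260: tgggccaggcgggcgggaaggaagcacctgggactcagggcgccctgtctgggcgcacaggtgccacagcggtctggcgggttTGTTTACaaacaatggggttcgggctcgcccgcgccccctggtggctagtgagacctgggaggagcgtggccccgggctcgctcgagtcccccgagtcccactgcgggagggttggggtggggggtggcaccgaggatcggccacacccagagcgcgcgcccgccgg
Mcl1 chr3:95658471-95658720: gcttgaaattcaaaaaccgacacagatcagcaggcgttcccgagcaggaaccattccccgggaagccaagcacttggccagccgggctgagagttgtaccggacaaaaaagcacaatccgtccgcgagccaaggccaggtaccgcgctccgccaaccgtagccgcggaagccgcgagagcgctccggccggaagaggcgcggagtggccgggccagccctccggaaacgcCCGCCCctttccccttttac
The FOXO letters start 227 bases before the start in Bcl2l11 and 167 bases before it in Bbc3. They occurred in 3.17% of 32851 promoter windows of the same length. RefSeq windows were used for 9 members, 15 windows in all, and 2 of these held the FOXO letters. The GC box was in 10 windows, of 7 genes, against 32.7% of all windows. CCAAT was in 4 windows (33.8% of all), CACGTG (E-box) in 2 (6.02%) and TTTNNCGC (E2F) in 1, of Bcl2l1 (4.28%). Some windows not printed lie in transcribed bases. All 250 bases of the Bcl2l1 window with the E2F letters are untranslated exon in GENCODE M21, as are 79 in the Bad window with CCAAT. The cyclic AMP response element, searched as TGACGTCA, was in 0 of the 15 and in 1.55% of all windows. The AP-1 site, searched as TGANTCA, was likewise in 0 of the 15 and in 6.75% of all. The STAT site, with the letters TTCNNNGAA, gave 0 and 7.02%. The NF-kB site gave 0 and 0.356%, and the TATA box, searched as TATAAA, 0 and 12.4%. All motifs were searched on both strands, and none contains the letters of another. A match is a run of letters and was not shown to be a bound site.

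The cultures carried macrophage RNA. The 10 macrophage markers summed to 14622 to 34198 TPM (counts divided by gene length, with every library brought to the same total) in wild-type and 17202 to 34158 TPM in Ts1Cje libraries. Of 11 lists for other cell types, 10 summed to at most 37.2 TPM in any library; the megakaryocyte list reached 140.0 to 774 TPM, nearly all from Pf4. Wild-type replicate 1 stood apart, at -88.2 on the first principal component (37.8% of the variance), where the other 5 libraries lay between -18.7 and 38.7. It had the lowest median of 20 G2/M cell cycle genes, -2.01 on the log2 scale against the wild-type mean, where the others lay between 0.22 and 1.08. It also had the highest sums of the 4 cardiomyocyte markers, 27.0 TPM against 0.723 to 6.82, and of the 4 epithelial markers, 25.9 TPM against 0 to 12.8. As a check of the labels, 34 of 37 tested genes listed for the extra segment of chromosome 16 had a positive log2 fold change (median 0.65). Total counts were 25484294 to 32658148 per library. In bulk RNA, fewer cells of a type and less RNA per cell cannot be told apart.

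No member passed the test between genotypes. EdgeR (quasi-likelihood, Benjamini-Hochberg over 13821 genes) called 0 of the 10 in either direction, where 0.00724% of all genes tested, a single gene, passed. DESeq2 also called 0 of the 10, where it called 0.405% of all genes. At an unadjusted p under 0.05 there was 1 member, Bcl2l11, lower in Ts1Cje, against 5.79% of all genes in either direction and 2.8% lower in Ts1Cje. For 0 of the 10 did the genotypes separate without overlap in CPM (counts scaled to the library total), against 12.1% of all genes. Of the 10, 7 had a positive and 3 a negative log2 fold change, and their median was 0.21, beside -0.01 over all genes tested. The negative values belonged to Bcl2l11, Bbc3 and Pmaip1, all BH3-only genes, while Bid and Bad of the same class were positive. Without wild-type replicate 1 the median of the 10 was 0.06. The values of Bax, Bak1, Bbc3, Pmaip1 and Bad were then 0.09, 0.30, -0.58, -0.12 and 0.09, and those of the other members stand with their levels.

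**Figure D1:**
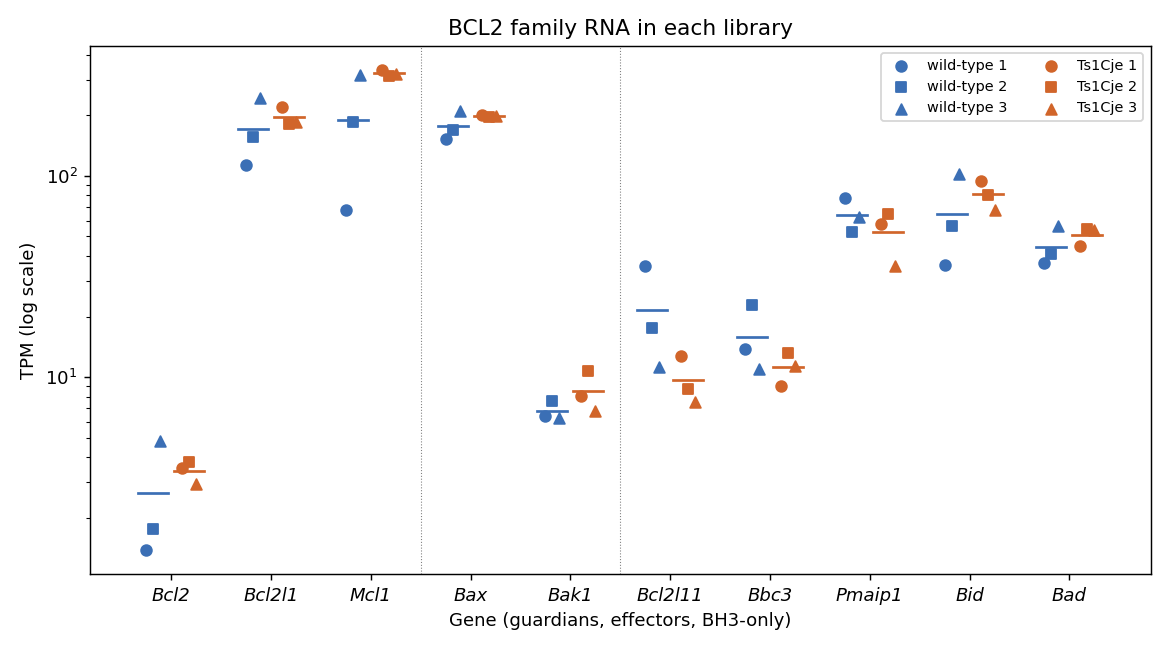
TPM (log scale) of each member in each of the 6 libraries, with horizontal bars at the mean of 3 libraries per genotype and dotted lines between guardians, effectors and BH3-only genes. The Ts1Cje libraries lie close together for Mcl1 and Bax, and wild-type replicate 1 is lowest for Mcl1 at 67.8 TPM and highest for Bcl2l11 at 35.5 TPM.

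Levels differed far more between members than between genotypes. Per length, Mcl1, Bcl2l1 and Bax were the leading transcripts. In Ts1Cje libraries Mcl1 averaged 323 ± 11.8 TPM (SD, n = 3), above Bax at 198 ± 1.27 and Bcl2l1 at 196 ± 22.0, and these last do not differ beyond their spread. In wild-type libraries the averages of the same genes, 189.6 ± 124, 177 ± 29.0 and 171 ± 66.0 TPM (SD, n = 3), do not differ beyond theirs. A middle tier held Bid, Pmaip1 and Bad, at 44.6 to 64.7 TPM in the wild-type libraries and 51.0 to 80.8 in Ts1Cje libraries on average. Bcl2l11 and Bbc3 followed at 21.4 and 15.8 TPM in the wild-type libraries and 9.67 and 11.2 in Ts1Cje libraries. Bak1, at 6.76 and 8.56 TPM, and Bcl2, at 2.64 and 3.42, had the lowest averages in both genotypes, but in Ts1Cje libraries Bak1 and Bcl2l11 do not differ beyond their spread. Bax RNA thus exceeded that of Bak1, its partner effector, and Bcl2, the founding member of the family, had the lowest level of the guardians. TPM here divide by 1 gene length, so a gene with many isoforms can be set too low or too high.

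Among guardians, Mcl1, which encodes a labile guardian needed by many blood cells, varied most. The gene (ENSMUSG00000038612) lies on the plus strand of chromosome 3 from 95658788 to 95663176 in mm10. It was at 67.8, 185 and 317 TPM in the wild-type libraries and at 336, 313 and 320.3 TPM in the Ts1Cje libraries. The Ts1Cje libraries were level with each other, and wild-type replicate 3 lay among them, while wild-type replicates 1 and 2 lay below. The log2 fold change was 0.79 ± 0.45 (SE; 95% interval -0.27 to 1.85), with an adjusted p of 0.797 by edgeR. It was 0.38 without wild-type replicate 1 and 1.36 without wild-type replicate 3 (adjusted p = 0.989 and 0.199 by edgeR). The cell cycle values of wild-type replicate 1 moved with its Mcl1 level, but wild-type replicate 2, with an intermediate Mcl1 level, had a G2/M median of 1.05, near that of wild-type replicate 3 at 1.02. Their part in the result was not tested.

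Bcl2l1 encodes BCL-XL, the guardian on which red cell precursors and platelets rely. Its values were 113, 156 and 243 TPM in the wild-type libraries and 221, 180.4 and 186 TPM in the Ts1Cje libraries. Wild-type replicate 3 was the highest of the 6 and wild-type replicate 1 the lowest, so that the wild-type libraries enclosed the Ts1Cje libraries. The log2 fold change was 0.21 ± 0.26 (SE; 95% interval -0.39 to 0.81; adjusted p = 0.885 by edgeR), and it was -0.01 without wild-type replicate 1. Erythroid markers summed to 0.635, 12.1 and 37.2 TPM in the wild-type libraries and 13.7, 6.51 and 1.76 TPM in the Ts1Cje libraries. They were also lowest in wild-type replicate 1 and highest in wild-type replicate 3, but 7 of the 10 averaged under 1 TPM. Megakaryocyte markers summed to 140.0, 774 and 351 TPM in wild-type and 620.0, 187 and 292 TPM in Ts1Cje libraries, highest in wild-type replicate 2. The part of either list was not tested. Bcl2, the guardian first found at a lymphoma breakpoint, was at 1.38, 1.75 and 4.80 TPM in the wild-type libraries and 3.52, 3.79 and 2.95 TPM in Ts1Cje libraries. In the wild-type libraries it had the same outline as Bcl2l1 at a much lower level, and these libraries were at both ends. Among Ts1Cje libraries replicate 2 was the highest for Bcl2 but the lowest for Bcl2l1. The log2 fold change of Bcl2 was 0.38 ± 0.45 (SE; 95% interval -0.66 to 1.43; adjusted p = 0.878 by edgeR), 0.08 without wild-type replicate 1 and 1.12 without wild-type replicate 3. Counts for Bcl2 were 107 to 383 per library.

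Of the effectors, Bax had the narrowest range of the 10 members over the 6 libraries. Bax, which opens the mitochondrial outer membrane once activated, was at 153, 168 and 209 TPM in the wild-type libraries and 199.7, 197 and 198 TPM in the Ts1Cje libraries. In TPM wild-type replicate 3 was above every Ts1Cje library and the other wild-type replicates below, while in the CPM of the test Ts1Cje replicate 3 was the highest, at 113 against 108 in wild-type replicate 3. The log2 fold change was 0.18 ± 0.15 (SE), and its 95% interval of -0.16 to 0.52 reaches no further than a fold of 1.43 (adjusted p = 0.834 by edgeR). Bax shares 192 of its 1576 exonic bases with Gm45808 on the same strand, so reads there fit both genes. Gm45808 had 0 counts in every library. Bak1, which encodes BAK, an effector that sits in the mitochondrial membrane already before activation, was at 6.38, 7.60 and 6.29 TPM in the wild-type libraries and 8.10, 10.8 and 6.80 TPM in Ts1Cje libraries. The highest value belonged to Ts1Cje replicate 2, and wild-type replicate 2 lay above Ts1Cje replicate 3. Its log2 fold change was 0.34 ± 0.27 (SE; 95% interval -0.29 to 0.96; adjusted p = 0.831 by edgeR), and 0.17 without Ts1Cje replicate 2. Bak1 shares 437 exonic bases with Ggnbp1 on the opposite strand, but Ggnbp1 had only 1 to 14 counts per library.

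Of the BH3-only genes, Bcl2l11 had the largest difference of the 10 with all 6 libraries, but not without wild-type replicate 1, where Bbc3 had -0.58 and Bcl2l11 -0.57. It encodes BIM, which binds all guardians and mediates death on loss of cytokines. The gene (ENSMUSG00000027381) lies on the plus strand of chromosome 2 from 128126038 to 128162547 in mm10. Its values were 35.5, 17.6 and 11.3 TPM in the wild-type libraries and 12.8, 8.74 and 7.50 TPM in the Ts1Cje libraries. Wild-type replicates 1 and 2 were above all Ts1Cje libraries, and wild-type replicate 3 lay below Ts1Cje replicate 1. The log2 fold change was -1.17 ± 0.42 (SE; 95% interval -2.14 to -0.19), with an unadjusted p of 0.0252 and an adjusted p of 0.792 by edgeR, rank 402 by p among the genes tested. It was -0.57 without wild-type replicate 1 and -1.48 without wild-type replicate 3 (adjusted p = 0.989 and 0.149 by edgeR). Counts were 611 to 2412 per library.

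Bbc3 encodes PUMA and Pmaip1 encodes NOXA, both targets of p53. Bbc3 was at 13.7, 22.8 and 11.0 TPM in the wild-type libraries and 9.05, 13.2 and 11.4 TPM in the Ts1Cje libraries. Wild-type replicate 2 was the highest, and wild-type replicate 1 lay just above the highest Ts1Cje library. Wild-type replicate 3 lay among the Ts1Cje libraries. Its log2 fold change was -0.49 ± 0.33 (SE; 95% interval -1.26 to 0.27; adjusted p = 0.813 by edgeR), and -0.15 without wild-type replicate 2. Pmaip1, whose protein neutralises MCL1, was at 77.7, 52.4 and 62.6 TPM in the wild-type libraries and 57.9, 65.0 and 35.7 TPM in Ts1Cje libraries. Wild-type replicate 1 was the highest and Ts1Cje replicate 3 the lowest, with the other 4 mixed between them. Its log2 fold change was -0.29 ± 0.23 (SE; 95% interval -0.84 to 0.25; adjusted p = 0.831 by edgeR), and -0.12 without Ts1Cje replicate 3.

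Bid links death receptors to mitochondria once a caspase cleaves it, and Bad is held inactive by growth factor kinases. Bid was at 36.0, 56.1 and 102 TPM in the wild-type libraries and 94.5, 80.2 and 67.8 TPM in the Ts1Cje libraries. As with Bcl2l1, wild-type replicates 1 and 3 were at the ends. The log2 fold change was 0.33 ± 0.33 (SE; 95% interval -0.44 to 1.10; adjusted p = 0.855 by edgeR), and 0.04 without wild-type replicate 1 and 0.80 without wild-type replicate 3. Bid shares 628 of its 3550 exonic bases with Bcl2l13 on the opposite strand, which had 987 to 1787 counts, and the sources used here do not say whether reads were counted by strand, so reads there cannot be assigned to either gene. Bad was at 36.8, 40.8 and 56.1 TPM in the wild-type libraries and 44.9, 54.2 and 53.9 TPM in Ts1Cje libraries. Wild-type replicate 3 was the highest in TPM, but in CPM Ts1Cje replicate 3 was, at 49.7 against 47.0. Its log2 fold change was 0.21 ± 0.20 (SE; 95% interval -0.25 to 0.67; adjusted p = 0.849 by edgeR), and 0.10 without Ts1Cje replicate 3. Bad lies on chromosome 19, whose 494 tested genes had medians, on the log2 scale relative to the wild-type mean, of -0.13, -0.03 and 0.21 in the wild-type libraries and of -0.20, 0.11 and -0.04 in the Ts1Cje libraries. Relative to the chromosome 19 median, a scale chosen after seeing the data and used for Bad alone, the difference was 0.27 on the log2 scale. It shares 524 exonic bases with Gpr137 on the opposite strand, at 396 to 605 counts.

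**Figure D2:**
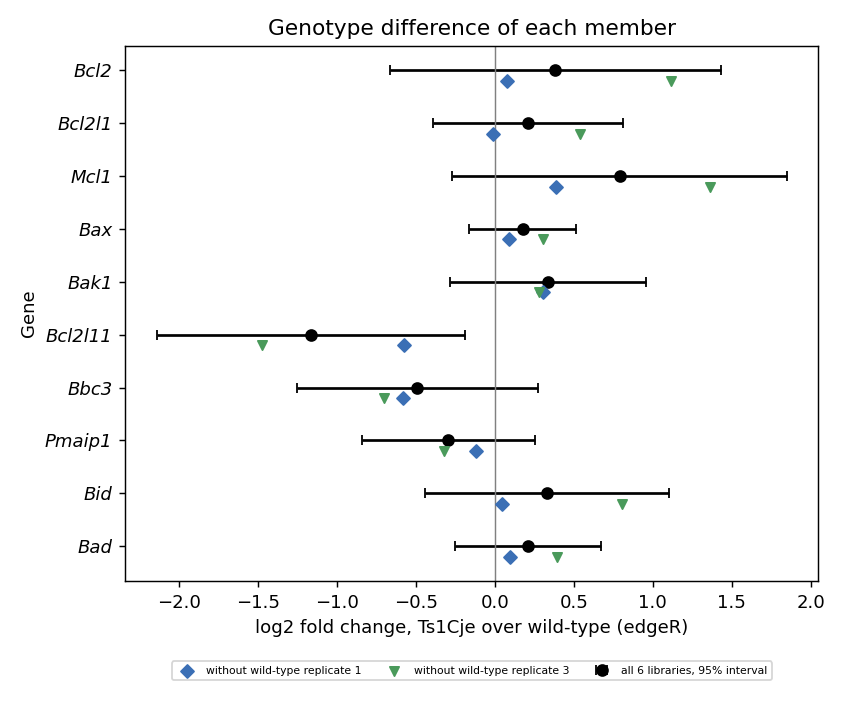
Log2 fold change of each member, Ts1Cje over wild-type, by edgeR on all 6 libraries (black points with 95% intervals), without wild-type replicate 1 (diamonds) and without wild-type replicate 3 (triangles). The interval of Bcl2l11, -2.14 to -0.19, is the one that does not reach 0, and without wild-type replicate 1 its point moves to -0.57.

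Wild-type replicate 1 was the lowest of the 6 libraries for 6 members (Bcl2, Bcl2l1, Mcl1, Bax, Bid and Bad) and the highest for Bcl2l11 and Pmaip1, 8 of 10 in all. Over 13205 tested genes with no 0 among their TPM it was at an extreme for 51.5%. The wild-type range was wider than the Ts1Cje range for 8 of 10 members, and for 62.6% of all those genes. For Mcl1 the highest wild-type library had 4.67 times the TPM of the lowest, against 1.07 times in Ts1Cje, and for Bcl2l11 these ratios were 3.15 and 1.70. Bak1 and Pmaip1 had the wider range in Ts1Cje, with ratios of 1.59 and 1.82 against 1.21 and 1.48 in wild-type.

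The make-up of the family's RNA followed the same libraries. The 10 members summed to 542, 708 and 1023 TPM in the wild-type libraries and 987, 926 and 890.4 TPM in the Ts1Cje libraries. Guardians varied more than the rest. They summed to 182, 342 and 564 TPM in the wild-type libraries and 560.2, 497 and 509 TPM in Ts1Cje libraries. The 7 pro-apoptotic genes varied less, from 359 TPM in wild-type replicate 1 to 458 in wild-type replicate 3. The ratio of guardian to pro-apoptotic TPM was 0.508, 0.937 and 1.23 in the wild-type libraries, as against 1.31, 1.16 and 1.33 in the Ts1Cje libraries. Wild-type replicate 3 lay inside the Ts1Cje range, and replicates 1 and 2 below it. The guardian sum covers Bcl2, Bcl2l1 and Mcl1 only and leaves out the A1 guardians of myeloid cells (Bcl2a1 genes). Of these, Bcl2a1b was at 85.6, 283 and 121 TPM in wild-type and 159, 160 and 147 TPM in Ts1Cje libraries. Bcl2a1d was at 43.3, 85.1 and 40.7 TPM in wild-type and 129.9, 113 and 71.3 TPM in Ts1Cje libraries. The ratio and the shares hold for the 10 members alone. With the A1 genes added to the guardians, wild-type replicate 2 lies inside the Ts1Cje range of the ratio and replicate 3 below it. This was not tested, and the A1 copies share reads. Mcl1 made up 12.5%, 26.1% and 31.0% of the summed TPM of the 10 members in the wild-type libraries and 34.0%, 33.8% and 36.0% in Ts1Cje libraries. These shares did not overlap, which held for 1 of the 10 members, beside 12.1% of all genes in CPM, which is another measure. With the A1 genes in the sum, the Mcl1 share of wild-type replicate 3 falls among those of the Ts1Cje libraries. The sum that these shares are taken of includes Mcl1, whose own levels overlapped in TPM and in CPM. Bcl2l1 kept a share of 19.5% to 23.7% in all 6 libraries. Mcl1 exceeded Bcl2l11 by 1.91, 10.5 and 28.1 times in wild-type and 26.3, 35.8 and 42.7 times in Ts1Cje libraries, a spread of 22.4 times between the lowest and highest library. The ratio of Bax to Bcl2 was 111, 95.8 and 43.6 in the wild-type libraries, as against 56.7, 52.0 and 67.2 in the Ts1Cje libraries, so that wild-type replicate 3 had the lowest value and the genotypes overlapped.

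**Figure D3:**
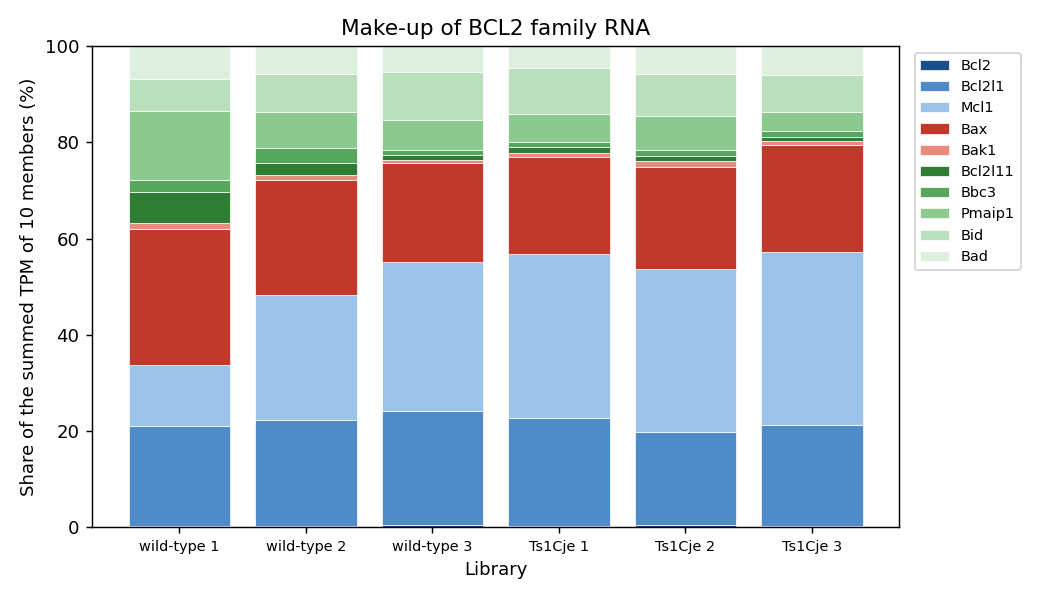
Share of each member in the summed TPM of the 10 members, 1 stacked bar per library (blue guardians, red effectors, green BH3-only genes). Mcl1 takes 12.5% in wild-type replicate 1 and 31.0% to 36.0% in wild-type replicate 3 and the Ts1Cje libraries.

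Some pairs of members correlated across libraries. Of 45 pairs, 18 had a Pearson correlation of log2 CPM over the 6 libraries with unadjusted p under 0.05 (exact two-sided permutation of libraries). The share among pairs of other genes was not computed, and wild-type replicate 1 was at an extreme for 51.5% of all genes. The 18 are therefore not shown to be particular to the family. After Benjamini-Hochberg over the 45 pairs 4 passed, all at an adjusted p of 0.0469, and 0 passed with Spearman's rho. With 6 libraries the exact p of rho takes few values, so rho could hardly pass and its 0 decides nothing. Bcl2l1 with Bid had r = 0.97 and rho = 0.94 (exact permutation p = 0.00278 and 0.0167, adjusted 0.0469 and 0.15), and r = 0.87 without the 2 libraries farthest from the median of Bcl2l1. The other pairs that passed were Bcl2 with Bid (r = 0.95), Bax with Bad (r = 0.92) and Bcl2l11 with Bad (r = -0.88), with rho of 0.94, 0.94 and -0.94. Their exact permutation p for r was 0.00417, 0.00278 and 0.00417, adjusted 0.0469 each, and for rho 0.0167, adjusted 0.15 each. Without the 2 farthest libraries they had r = 0.76, 0.73 and -0.75. Mcl1 with Bcl2l11 had r = -0.96 and rho = -0.77 (exact permutation p = 0.0139 and 0.103, adjusted 0.0682 and 0.330). Without wild-type replicates 1 and 2 it was r = -0.21, so the relation rests on those libraries. Within Ts1Cje r was -0.07 over 3 libraries, too few to test.

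**Figure D4:**
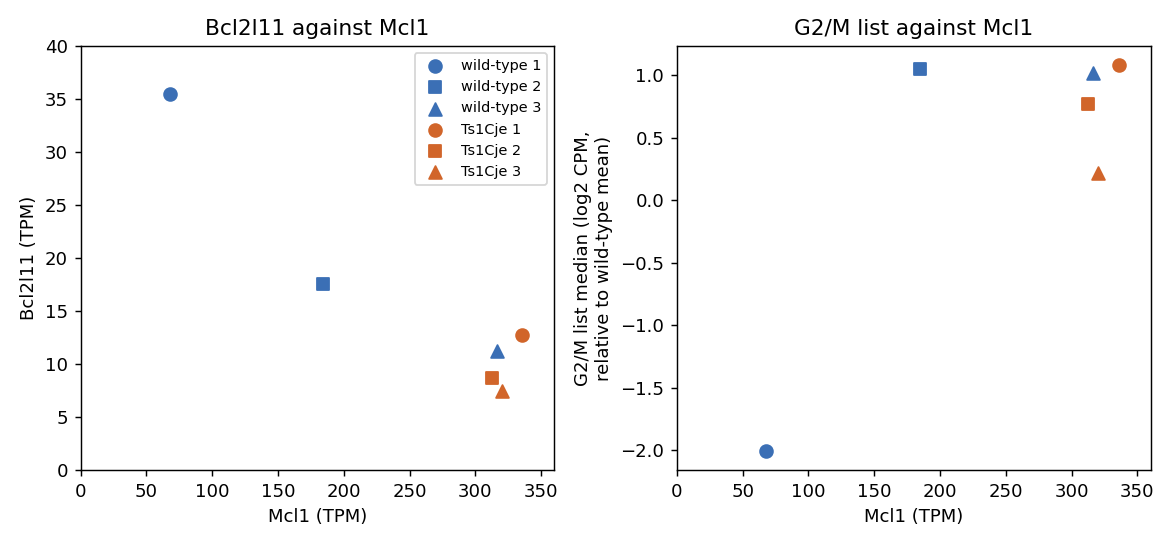
Left, Bcl2l11 against Mcl1 in TPM, 1 point per library. Right, the median of 20 G2/M genes (log2 CPM relative to the wild-type mean) against Mcl1. Wild-type replicate 1 lies alone in both panels, at 67.8 TPM of Mcl1. Wild-type replicate 2 lies apart from the other libraries on the left and has a G2/M median of 1.05 on the right.

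Other genes of the family and pathway are given from lists chosen by function. Of 17 other BCL2 family genes 11 were tested, 6 with a positive and 5 with a negative log2 fold change (median 0.02, and -0.19 without wild-type replicate 1). EdgeR and DESeq2 called 0 of the 11, where they called 0.00724% and 0.405% of all genes. The genotypes did not overlap for 3, all lower in Ts1Cje (Bmf, Bnip3l and Bcl2l12), where 5.72% of all genes were lower in this way. Bmf, a BH3-only gene whose protein is held on the cytoskeleton, was at 6.998, 3.40 and 1.59 TPM in the wild-type libraries and 1.45, 0.262 and 1.12 TPM in the Ts1Cje libraries. As for Bcl2l11, wild-type replicate 1 was the highest, and Ts1Cje replicate 2 rested on 12 counts. Its log2 fold change was -2.07 ± 0.74 (SE; unadjusted p = 0.0244, adjusted p = 0.792 by edgeR). Bcl2a1d, of the A1 guardians of myeloid cells, was at 43.3, 85.1 and 40.7 TPM in the wild-type libraries and 129.9, 113 and 71.3 TPM in Ts1Cje libraries (log2 fold change 0.89 ± 0.33 (SE), adjusted p = 0.792 by edgeR). The A1 genes are near-identical copies that share reads, so the value of any 1 copy is uncertain, and Bcl2a1b had -0.06 ± 0.40 (SE). Bnip3 and Bnip3l, mitophagy receptors, had -0.94 ± 0.46 and -0.25 ± 0.14 (SE), and Bnip3 was high in wild-type replicate 2 alone, at 246 TPM against 51.8 to 87.3. Hrk, Bcl2l10, Bcl2l14, Bcl2l15, Bnipl and Bcl2a1c had at most 12 counts in any library and were not tested.

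Downstream of the mitochondria, 21 genes of cytochrome c, caspases, their inhibitors and outer membrane channels were tested, 11 above and 10 below 0 on the log2 scale (median 0.00, and -0.06 without wild-type replicate 1), and 0 had an unadjusted p under 0.05 by edgeR and 0 were called by DESeq2. Birc3, an inhibitor of apoptosis, had -0.48 ± 0.22, Birc6, a giant ubiquitin ligase that restrains caspases, -0.33 ± 0.15, Casp6, an executioner caspase, -0.52 ± 0.26 and Cycs, cytochrome c, 0.47 ± 0.25 on the log2 scale (SE). Of 19 tested regulators of the family's transcription, 9 were positive and 10 negative (median -0.08), and 0 were called by edgeR or DESeq2. Over all genes tested edgeR called 0.00724% and DESeq2 0.405%, and 5.79% had an unadjusted p under 0.05 by edgeR. Of the 19 regulators, 2 had an unadjusted p under 0.05 by edgeR. These were Mdm4, an inhibitor of p53, at -0.71 ± 0.19, and Rel, an NF-kB subunit, at -0.57 ± 0.17 (SE). Mdm4 was at 12.5, 12.4 and 9.98 TPM in the wild-type libraries and 7.39, 8.72 and 5.30 TPM in the Ts1Cje libraries. The genotypes did not overlap in CPM for 6 of the 19, Mdm4, Rel, Foxo1 and Foxo3 lower and Trp53 and Nfkb1 higher in Ts1Cje, beside 12.1% of all genes. In TPM the genotypes overlapped for Trp53, at 32.4 in wild-type replicate 3 against 31.4 in Ts1Cje replicate 3. They overlapped for Foxo1 too, at 5.31 in wild-type replicate 1 against 5.49 in Ts1Cje replicate 2. Foxo3 was apart only by 19.43 CPM in wild-type replicate 3 against 19.40 in Ts1Cje replicate 3. Trp53 itself had 0.24 ± 0.13 and Jun, an AP-1 subunit, -0.66 ± 0.34 (SE).

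Genes for kinases and turnover factors of the family's proteins had a median of 0.03 over 23 tested, 14 positive and 9 negative. Of these, 0 were called by edgeR or DESeq2, and 3 had an unadjusted p under 0.05 by edgeR, beside 5.79% of all genes. Dynll2, the dynein light chain that tethers BMF, was at 26.2, 31.3 and 43.4 TPM in the wild-type libraries and 62.9, 53.5 and 64.9 TPM in Ts1Cje libraries, higher without overlap as were 6.38% of all genes (log2 fold change 0.86 ± 0.21 (SE), unadjusted p = 0.00417, adjusted p = 0.792 by edgeR). Rps6ka1, a kinase that phosphorylates BAD, had 0.63 ± 0.19, and Pim3, a survival kinase, -0.79 ± 0.33, also without overlap, and Btrc, a ubiquitin ligase subunit, -0.34 ± 0.21 (SE). Other p53 target genes had a median of -0.10 over 20 tested, 9 positive and 11 negative, with 0 called by edgeR or DESeq2. An unadjusted p under 0.05 by edgeR was found for 2, beside 5.79% of all genes. The 2 were Trp53inp1 at -0.97 ± 0.33 and Fas, a death receptor, at -1.67 ± 0.66 (SE). Aen, a nuclease, had 0.37 ± 0.23 and Tigar, a regulator of glycolysis, 0.48 ± 0.28 (SE).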

How the data were processed

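RNA of 6 libraries was read from the authors' deposited raw counts per gene and the authors' deposited TPM. Per the submitters' processing notes, reads went through Trimmomatic 0.38, HISAT2 2.1.0 on mm10 and featureCounts 1.6.3, with FastQC 0.11.7; libraries used a SMART-seq kit per the labels' protocols. In 9151 genes with at least 100 counts in each library the deposited TPM equalled counts over a gene length, within 0.1%.

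Genotypes were compared with edgeR 4.0.16 in R 4.3.3 on counts: filterByExpr (minimum 10, total 15), TMM factors, quasi-likelihood test, genotype as the only term, Benjamini-Hochberg over 13821 genes, threshold 0.05. Positive log2 fold changes mean higher in Ts1Cje. SE is the log2 fold change over the root of F, and 95% intervals use its t quantile. CPM use TMM-scaled totals, and log2 CPM a prior count of 2. The fit was also tested on simulated data, where most small differences were missed. With a built-in difference of 1.5-fold, edgeR found 1 gene in 67. At 2-fold it found 6 in 67, and at 4-fold 39 in 66. The same figures for DESeq2 were 4, 23 and 49. Where no difference was built in (13621 genes), edgeR still called 6 and DESeq2 50. That 0 of the 10 members were called therefore does not show equal levels. Promoter windows came from RefSeq tables (GRCm38.p6).

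All 10 members are named. Of each other list the 4 tested genes with the smallest p are named, except for the G2/M and chromosome 16 lists, which are given as a whole. Bcl2a1b, Bcl2l12, Foxo1, Foxo3, Nfkb1 and the untested genes were added after their values were seen. Members and lists were chosen with earlier results of these data known. Alternatives were other scalings, filters, DESeq2 1.42.0, limma 3.58.1 (voom, and log2 TPM with pseudocounts of 1 and 0.1), a replicate block and each library left out. A gene that the rule for likeness to members names is not reported here.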

Additional observations from a re-analysis of the deposited data

How the results depend on the processing

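Each member was refitted under 17 alternatives, and 0 of the 10 passed an adjusted p of 0.05 in any of them. All kept their direction in all 17, except Bcl2l1, which was -0.012 without wild-type replicate 1 (-0.012 to 0.54 over the 6 libraries left out in turn). The lowest adjusted p for a member was 0.147, for Bcl2 without wild-type replicate 3. The count of members called was 0 throughout. Over all genes, the count was 1 with all libraries, 3 with no filter on low counts, 56 with DESeq2, 0 with the replicate block, and 1 to 6 with a library left out, the 6 without wild-type replicate 3; the cause was not tested. Deviations of same-numbered libraries from their genotype mean correlated at -0.18, -0.05 and -0.06 for lots 1 to 3. Those of unlike-numbered libraries correlated at -0.11 to 0.17. Deviations from a mean of 3 libraries depend on each other, so these values cannot decide whether lots pair the libraries. With the replicate block Bcl2l11 had -1.02 and Mcl1 1.02 on the log2 scale, both at an adjusted p of 0.932 (edgeR). The range of the Ts1Cje libraries (log2 of highest over lowest) was 0.10 for Mcl1 and 0.02 for Bax in TPM, but 0.19 and 0.16 in TMM-scaled CPM. With 3 libraries a genotype and a wide wild-type spread, the intervals of Mcl1, Bcl2 and Bid include rises, and those of Bcl2l11 and Bbc3 falls, of 2-fold and more.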

Other observations

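By Pearson correlation of log2 CPM over the 6 libraries, among 7087 other genes whose log2 CPM averaged above 4, the genes most like Bcl2l11 were Otud5 (r = 0.998), Kdm7a (0.993) and Numa1 (0.988), and 46 genes had r above 0.95. Kdm7a, a histone demethylase, was at 67.4, 41.3 and 28.7 CPM in wild-type and 28.8, 23.8 and 24.6 CPM in Ts1Cje replicates 1 to 3, highest in wild-type replicates 1 and 2 as for Bcl2l11. Among the genes most like Mcl1 were Tmem273 and Rac1 (r = 0.997 each), and 173 had r above 0.95. Rac1, a GTPase of the cytoskeleton, was at 236, 366 and 461 CPM in wild-type and 466, 445 and 457 CPM in Ts1Cje libraries. The genes most like Bax were Pea15a (0.998), C2cd2l and Mcoln2 (0.993 each), and 93 had r above 0.95. With 6 libraries and so many genes, such values are common, and they are given with no test.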
